A study of Mus musculus with 4 samples.

Results

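*Vgf* and 9 further genes of the granin and prohormone-processing family were followed in mouse cochleae after ablation of outer hair cells (OHCs). The members were *Vgf*, the granins *Chga*, *Chgb*, *Scg2*, *Scg3*, *Scg5* and *Pcsk1n*, and the processing enzymes *Pcsk1*, *Pcsk2* and *Cpe*. Every noncontrol probe carrying one of these 10 gene names in the scanner files was taken, which gave 13 of 39429 probes and 10 of 29977 gene names on the array. In *Prestin*-*hDTR* mice, called OHC-TRECK in the sample labels, the promoter of the prestin gene (*Slc26a5*) drives the human receptor for diphtheria toxin (DT), so that DT kills cells using this promoter. Cochlear total RNA of 4 groups was measured, namely wild-type and *Prestin*-*hDTR* mice, each untreated or DT-treated, all of the B6J background and 5 weeks of age. Both DT-treated groups had received 50 μg/kg of DT 7 days before the cochleae were taken. Each group was 1 pool of RNA from 8 cochleae of 4 females and 4 males on 1 array, and the transgenic mice were of a single line. The arrays therefore give no replicate check of any difference, and no p-value is given.

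Granins are acidic proteins that are packed into dense-core vesicles, the storage granules of neurons and endocrine cells, and are released with neuropeptides and hormones. In these vesicles, the prohormone convertases cut peptide precursors after pairs of basic residues, carboxypeptidase E removes the basic residues left at the cut end, and *Scg5* (7B2) and *Pcsk1n* (proSAAS) encode partners of the convertases. VGF is a precursor of this class, and its peptides are released from neurons. In the cochlea, spiral ganglion neurons and the nerve fibres reaching hair cells are a known neuronal compartment. The members were thus compared to see whether relatives of *Vgf* in the same secretory route changed along with it.

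Signals were divided by the 75th percentile of each array and brought to the log2 scale, so that a value of 0 is a signal at that percentile. The array software marks a probe as well above background, and a probe that was not is called dim here. Of the 13 member probes, 12 passed this mark on all 4 arrays, and the probe of *Pcsk1* was dim on all 4. With 1 probe per gene, 9 of the 10 members could be compared. The share of probes well above background ran from 62.3% to 70.6% between the arrays, no spot was saturated, and no spot of a member was marked as an outlier. Repeated spots of 1 probe within an array had a median SD of 0.06 to 0.07 on the log2 scale, which covers the error of spots and not the spread between mice. The cochlear markers *Otos*, *Coch* and *Slc26a4* were well above background on every array.

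The probes behind the main values are 60 bases long, and their first 30 bases are shown because each single value for a gene rests on 1 of them. In the mm9 build of the array files, the stretches lie at chr5:137509153-137509182 (plus strand) for *Vgf*, chr1:79431353-79431382 (minus strand) for *Scg2*, chr12:103803083-103803112 (plus strand) for *Chga* and chr2:132620703-132620732 (plus strand) for *Chgb*.
Vgf: ctctgttgtaaatacccctcacggaggaaa
Scg2: gaattattttgttactgtctgtagtgtttt
Chga: acaggcagctttctagaagtttctcttcca
Chgb: tagcgtgacttgtagcgtattcttcctgca

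*Vgf* was strongly upregulated in DT-treated *Prestin*-*hDTR* mice, and it was the only member whose signal differed by 2-fold or more from all 3 other arrays. Its normalized log2 signal was -1.96 without and -1.63 with DT in wild-type mice, and -2.69 without and 1.5 with DT in *Prestin*-*hDTR* mice. The first 3 arrays were all low and the last was far above them, with no overlap. The signal was 11.0-fold that of untreated wild-type, 8.75-fold that of DT-treated wild-type, and 18.3-fold that of untreated *Prestin*-*hDTR* mice. Before scaling, the deposited intensities of this probe were 700, 1023, 467 and 8832 in the same order of arrays. The error the software assigned to each of these 4 intensities was 10.0% to 10.2%. The 3 other arrays spanned 1.06 on the log2 scale, and the lowest of the 3 differences (3.13, against DT-treated wild-type mice) was 2.94 times that span.

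Among the 18232 genes well above background on all 4 arrays, *Vgf* ranked 1st both for the difference from the mean of the 3 other arrays (3.59 on the log2 scale) and for the smallest of its 3 differences. The study's own list of raised genes is headed by *Vgf*, so this rank describes the same arrays and is not independent evidence. Apart from the arrays, the paper reports *Vgf* as significantly raised in DT-treated *Prestin*-*hDTR* mice by quantitative RT-PCR (qRT-PCR) of cochlear RNA. Against untreated wild-type mice, wild-type mice with DT and *Prestin*-*hDTR* mice without DT, 1 of the 9 members compared was 2-fold or more higher each time, beside 2.11%, 1.52% and 2.71% of all genes tested. Against all 3 arrays, 1 of 9 members was higher, beside 1.22% of genes, and 0 of 9 were lower, beside 0.291% of genes.

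**Figure D1:**
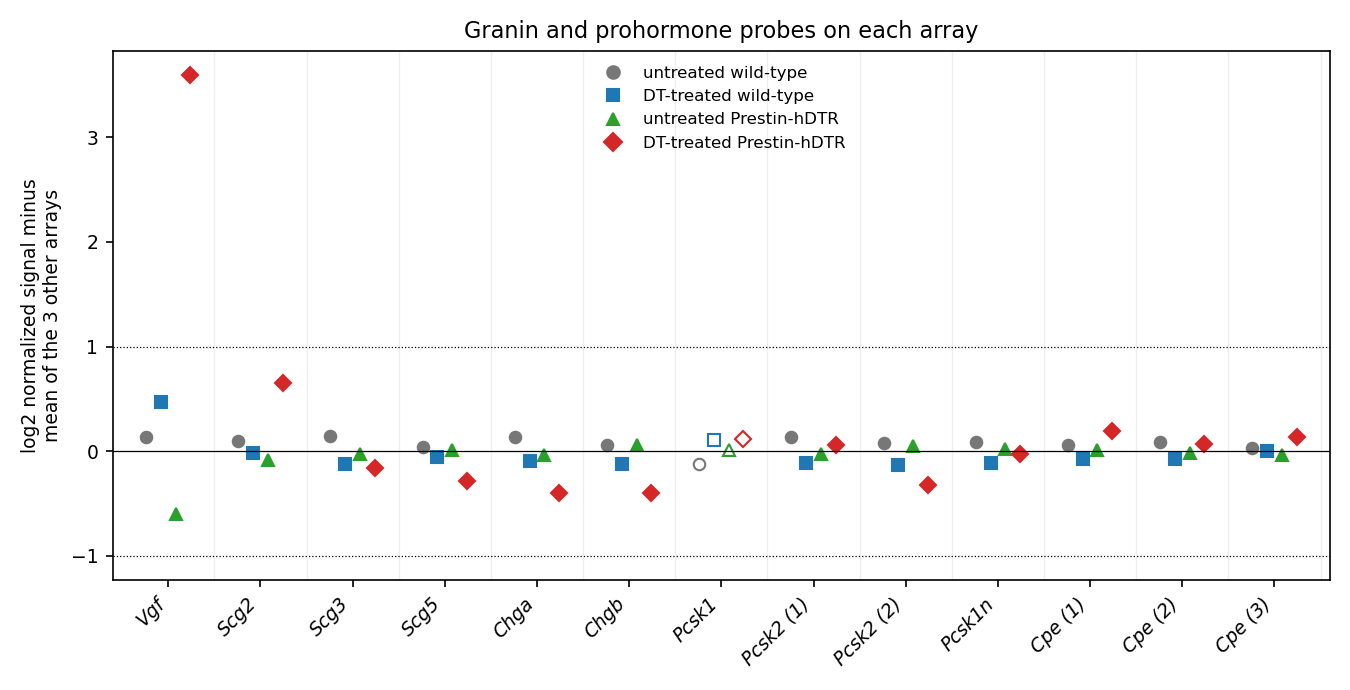
Each point is the log2 normalized signal of 1 of the 13 member probes on 1 array, minus the mean of that probe over the 3 arrays other than DT-treated *Prestin*-*hDTR*; filled points are well above background, open points are dim, and dotted lines mark 2-fold. *Vgf* in DT-treated *Prestin*-*hDTR* mice lies 3.59 above this mean, *Scg2* lies 0.65 above it, and *Chga* and *Chgb* lie 0.40 below it.

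*Scg2* encodes secretogranin II, the precursor of secretoneurin, and was the granin whose pattern lay nearest to that of *Vgf*, at a much smaller size. Its normalized log2 signal was -2.80 without and -2.92 with DT in wild-type mice, and -2.99 without and -2.25 with DT in *Prestin*-*hDTR* mice. The last array was the highest, and the other 3 lay within 0.19 of each other. It was 1.47-fold, 1.59-fold and 1.67-fold the signal of the 3 other arrays in that order, which is under 2-fold in each case. Of the 18232 genes, 2.21% had a larger difference from the mean of the 3 other arrays.

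The chromogranins, abundant proteins of chromaffin granules, had the opposite direction. The normalized log2 signal of *Chga* was 4.52 without and 4.30 with DT in wild-type mice, and 4.35 without and 3.99 with DT in *Prestin*-*hDTR* mice. *Chgb* had 5.12, 4.94, 5.11 and 4.66 in the same order. Both were lowest in DT-treated *Prestin*-*hDTR* mice, by 0.30 to 0.53 on the log2 scale for *Chga* and by 0.28 to 0.46 for *Chgb*. The probe of *Chgb* was printed 10 times on each array, and its spots had an SD of 0.04 to 0.06 on the log2 scale, smaller than each of these differences. As this SD leaves out the spread between mice, the *Chgb* difference is larger than the error of its spots, and the error between animals is unknown. Of the 18232 genes, 6.74% lay further below the mean of the 3 other arrays than *Chga*, and 6.69% further than *Chgb*.

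*Scg3*, which encodes a granin that binds chromogranin A and cholesterol at the vesicle membrane, had log2 signals of 2.24 without and 1.98 with DT in wild-type mice, and 2.08 without and 1.94 with DT in *Prestin*-*hDTR* mice. The lowest 2 arrays were both DT-treated and only 0.04 apart. For *Scg5*, the chaperone of convertase 2, the values were 2.41, 2.31, 2.38 and 2.08, and the DT-treated *Prestin*-*hDTR* array was lower than each other array by 0.23 to 0.33. For *Pcsk1n*, the inhibitor of convertase 1, they were 2.94, 2.74, 2.88 and 2.83, and the DT-treated *Prestin*-*hDTR* array lay between the others.

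Of the processing enzymes, *Pcsk1* (convertase 1) was dim on every array, with intensities of 14.8 to 20.1, and no fold is given. *Pcsk2* (convertase 2) had a probe at each of 2 places, and the probes did not move alike. The brighter one had log2 signals of 0.37 without and 0.15 with DT in wild-type mice, and 0.33 without and -0.04 with DT in *Prestin*-*hDTR* mice, and was lowest in the last. The other one had 0.02, -0.22, -0.13 and -0.05, and its DT-treated *Prestin*-*hDTR* value lay within the range of the others. The difference from the mean of the 3 other arrays was -0.33 for the brighter probe and 0.06 for the other, so a direction for *Pcsk2* depends on the probe. The first 30 bases of each are given, since the 2 lie 2207 bases apart by their starts in mm9, at chr2:143641856-143641885 for the brighter and chr2:143639649-143639678 for the other, both on the plus strand.
Pcsk2, brighter: ccctgagtctgatgcaagagacagtcattt
Pcsk2, other: gacacaagcaatcccagcctggtctcaagc

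*Cpe* (carboxypeptidase E) had 3 probes. The one with the highest mean signal had log2 signals of 5.67 without and 5.51 with DT in wild-type mice, and 5.56 without and 5.64 with DT in *Prestin*-*hDTR* mice, where the last lay inside the range of the others. The other 2 probes were highest in DT-treated *Prestin*-*hDTR* mice, by 0.13 to 0.26 and by 0.10 to 0.16 on the log2 scale. None of the 3 probes reached a difference of 2-fold from any array.

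Taking 1 probe per gene, 2 of the 9 members compared were highest on the DT-treated *Prestin*-*hDTR* array at any fold, beside 33.5% of genes, and 5 were lowest on it, beside 34.9% of genes. The 2 highest were *Vgf* and *Scg2*, and the 5 lowest were *Chga*, *Chgb*, *Scg3*, *Scg5* and *Pcsk2*. Without *Vgf*, the median difference from the mean of the 3 other arrays was -0.22 on the log2 scale over 8 members, between -0.40 and 0.65, and the median over all genes was 0.01. The relatives of *Vgf* thus had no shared rise of 2-fold on these arrays, and most were below the mean of the other arrays by less than that. Of these 8, 7 were highest in untreated wild-type mice, beside 5777 of the 18232 genes well above background on all 4 arrays. The median difference of the 8 members was -0.31 from untreated wild-type, -0.12 from DT-treated wild-type and -0.22 from untreated *Prestin*-*hDTR* mice.

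**Figure D2:**
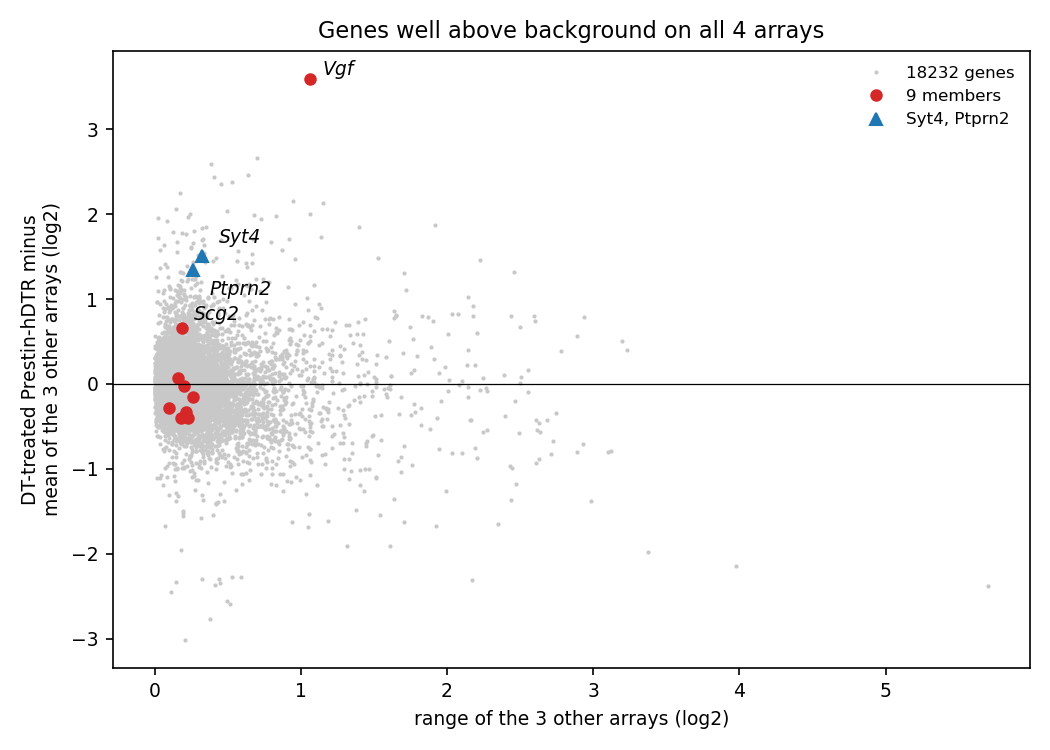
Each grey point is 1 of 18232 genes well above background on all 4 arrays, with the range of the 3 other arrays on the x axis and the difference of DT-treated *Prestin*-*hDTR* from their mean on the y axis, both on the log2 scale. Red points are the 9 members compared and blue triangles are *Syt4* and *Ptprn2*; *Vgf* is the highest point of all, at 3.59, and the other members lie between -0.40 and 0.65.

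Markers of neurons were also measured beside the granins. Of 15 markers of the spiral ganglion and of neurons in general, all well above background on the 4 arrays, 8 were lowest in DT-treated *Prestin*-*hDTR* mice, beside the 34.9% of all genes given above, 2 were highest and 5 lay between. Against all 3 other arrays, 0 were 2-fold or more lower and 1 was higher. Their median difference was -0.14 on the log2 scale from the mean of the 3 other arrays and -0.03 from DT-treated wild-type mice, and their summed level, in units of the 75th percentile, was 187 without and 159 with DT in wild-type mice, and 173 without and 151 with DT in *Prestin*-*hDTR* mice. The summed level was lowest in the last group and highest in the first. *Gap43*, a growth-cone protein of regrowing axons, was the 1 neuronal marker that rose by 2-fold, by 1.22 to 1.64 on the log2 scale. In bulk RNA of this kind, fewer cells of a type and less RNA per cell cannot be told apart, and the part of these markers in the values of the members was not tested.

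Markers of hair cells and macrophages differed on the same array. Of 8 OHC markers, 5 were 2-fold or more lower than on all 3 other arrays, beside 0.291% of all genes. The summed level of the 8 fell from between 23.6 and 25.7 to 5.96, with *Slc26a5* dim in DT-treated *Prestin*-*hDTR* mice only. Of 6 general hair cell markers, 2 were 2-fold or more lower and 5 were lowest, beside 0.291% and 34.9% of all genes. The median difference of the 6 was -0.57. Of 3 inner hair cell markers, 0 passed 2-fold, 2 were lowest and 1 was highest, beside 34.9% and 33.5% of all genes. The median of the 3 was -0.44. The summed level of these 3 was 4.46, 4.70 and 4.86 on the other arrays and 4.87 in DT-treated *Prestin*-*hDTR* mice. Of 11 macrophage markers, 5 were 2-fold or more higher, beside 1.22% of all genes, with *Itgam* lower rather than higher. The summed level of the 11 was 26.6, 23.6 and 21.4 on the other arrays and 35.0 in DT-treated *Prestin*-*hDTR* mice. The 6 Schwann cell markers had a median difference of 0.10. Of 6 neuroendocrine markers, *Insm1*, *Dbh* and *Chrna3* were dim on all 4 arrays, 2 others were well above background on all 4, and 0 passed 2-fold, with a median of -0.03 over the 3 compared. Whether any of these cells carried the *Vgf* signal was not tested.

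DT and the transgene were also compared on their own. Untreated *Prestin*-*hDTR* against untreated wild-type mice gave 0 of 9 members changed by 2-fold, beside 3.46% of genes changed either way, and DT-treated against untreated wild-type mice gave 0 of 9, beside 2.67%. *Vgf* was 1.66-fold lower with the transgene alone (-0.73 on the log2 scale) and 1.26-fold higher with DT alone (0.33). For the other 8 members, the differences were -0.19 to -0.01 with the transgene alone and -0.26 to -0.10 with DT alone. Untreated wild-type mice had the higher signal in both comparisons for all 8, and 1 shared array stands behind both. The median over all genes was -0.02 in each comparison, and the share of all genes with the same order was not counted.

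The difference between DT-treated and untreated mice could then be set side by side in the 2 genotypes, which share no array. For *Vgf* it was 4.19 in *Prestin*-*hDTR* and 0.33 in wild-type mice on the log2 scale, so the 2 differed by 3.86. For *Scg2* it was 0.74 in *Prestin*-*hDTR* and -0.11 in wild-type mice, so the 2 differed by 0.85. For the other 7 members, the 2 differed by -0.27 to 0.24. With 1 array in each cell of this design, these differences could not be tested.

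**Figure D3:**
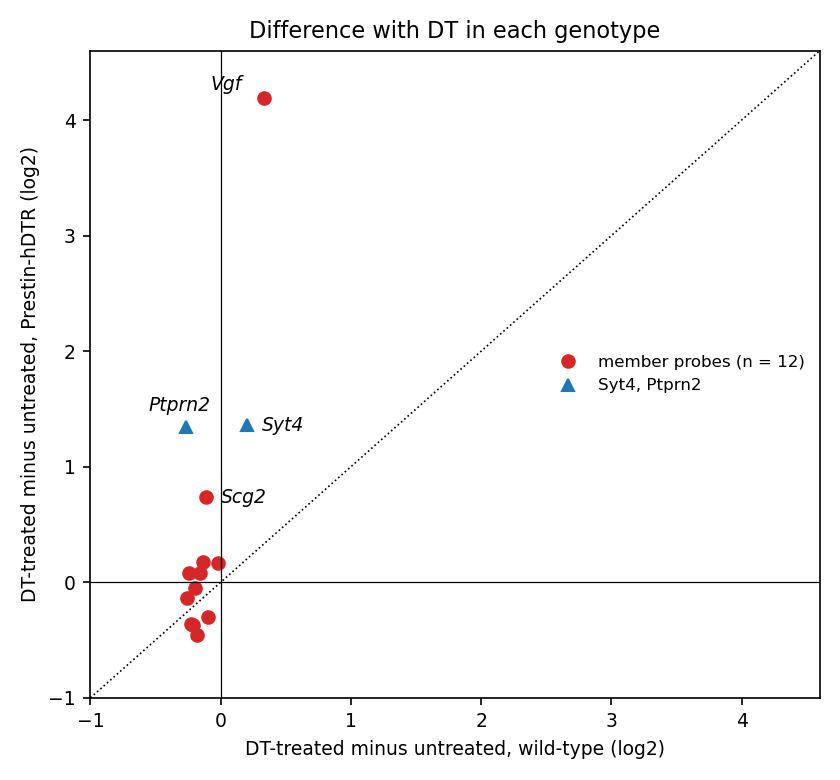
The difference of DT-treated from untreated mice on the log2 scale is plotted for wild-type (x axis) and *Prestin*-*hDTR* mice (y axis), for the 12 member probes well above background on all 4 arrays (red) and for *Syt4* and *Ptprn2* (blue). The dotted line marks equal differences; *Vgf* lies far above it at 0.33 and 4.19, and *Scg2* lies at -0.11 and 0.74.

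Other genes of the same secretory route were then examined in 5 lists of 108 genes, which were drawn up with results of these arrays known. Of these genes, 93 were well above background on at least 1 array. Against all 3 other arrays, 4 of them were 2-fold or more higher and 1 was lower in DT-treated *Prestin*-*hDTR* mice, beside the 1.22% and 0.291% of all genes given above. Their median difference from the mean of the 3 other arrays was 0.02, and that of all genes was 0.01. *Syt4* and *Ptprn2* are also in the study's list of raised genes, so their rise is not independent evidence of a direction.

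Of 34 genes of dense-core vesicle formation, transport and release, *Syt4* and *Ptprn2* were 2-fold or more higher, 0 were lower, and 32 were neither. *Syt4* encodes synaptotagmin 4, a vesicle protein that does not act as a classical calcium sensor. Its log2 signal was -1.15 without and -0.95 with DT in wild-type mice, and -0.83 without and 0.53 with DT in *Prestin*-*hDTR* mice, and the last was 3.21-fold, 2.79-fold and 2.57-fold the others. *Ptprn2* encodes phogrin, a transmembrane protein of the vesicle, and had -4.14, -4.40, -4.27 and -2.93, which is 2.32-fold, 2.78-fold and 2.53-fold. In both, the 3 other arrays lay close together and well below the last. The 2 other probes of *Ptprn2* were dim on all 4 arrays, so its rise rests on 1 probe. With normexp background correction in place of that of the scanner software, *Syt4* passed 2-fold against all 3 arrays and *Ptprn2* did not.

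The median of this list was -0.11, and many of its members were lower by less than 2-fold. *Ptprn* (IA-2), the closest relative of *Ptprn2*, had log2 signals of -3.10, -3.26, -3.25 and -2.62, and was higher in DT-treated *Prestin*-*hDTR* mice by 0.47 to 0.63. As examples on the lower side, *Snap25*, a protein of the membrane fusion complex, was 0.25 to 0.55 below the other arrays, and *Cadps* (CAPS1), a priming factor of dense-core vesicles, was 0.37 to 0.72 below them. Both genes were lowest in DT-treated *Prestin*-*hDTR* mice and highest in untreated wild-type mice. Of the 32 genes of the list well above background on all 4 arrays, 11 were highest and 16 were lowest on the DT-treated *Prestin*-*hDTR* array, beside the 33.5% and 34.9% of all genes given above.

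Of 43 neuropeptide and peptide hormone precursors, 29 were well above background on at least 1 array, and *Tac2*, *Ucn* and *Tac1* passed 2-fold against all 3 other arrays. *Tac2*, the precursor of neurokinin B, had log2 signals of -6.68 (dim), -5.33, -6.27 and -4.19, and was at least 3.33-fold higher than in untreated wild-type, 2.21-fold higher than in DT-treated wild-type and 4.23-fold higher than in untreated *Prestin*-*hDTR* mice. *Ucn*, the precursor of urocortin, passed the background mark on the DT-treated *Prestin*-*hDTR* array alone (-4.21), and was at least 3.28-fold, at least 2.40-fold and at least 4.53-fold higher than on the 3 other arrays. Here a dim signal below the lowest signal well above background on its array was raised to that signal. The folds written with "at least" are therefore lower bounds.

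*Tac1*, the precursor of substance P and neurokinin A, went the other way. Its log2 signal was -2.71 without and -4.01 with DT in wild-type mice, and -3.77 without and -5.70 (dim) with DT in *Prestin*-*hDTR* mice. It was at least 6.66-fold, at least 2.71-fold and at least 3.20-fold lower in the last group, and the 3 other arrays themselves spanned 1.30 on the log2 scale. With normexp background correction, none of *Tac2*, *Ucn* and *Tac1* passed 2-fold against all 3 arrays. The remaining 26 precursors passed in neither direction, and 14 more were dim on all 4 arrays, among them *Sst*, *Vip* and *Crh*.

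Enzymes that cut and trim peptides outside the members were flat. Of 19 such genes, 0 passed 2-fold in either direction, with a median difference of 0.00 from the mean of the 3 other arrays over the 18 with a value on all 4 arrays. *Prcp*, a lysosomal carboxypeptidase, had the highest difference (0.28), and its brightest probe was 1.21-fold to 1.23-fold higher, although another of its probes was 1.33-fold to 1.44-fold lower. *Pcsk4* had no value in DT-treated *Prestin*-*hDTR* mice because its spot was marked as an outlier.

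Neurotrophins and their receptors were as flat. Of 9 genes, 8 were compared and 0 passed 2-fold in either direction, with a median of 0.02 and a range of -0.28 to 0.18. *Ntf3* (neurotrophin 3) had log2 signals of -2.77, -2.94, -2.88 and -3.14, and was lowest in DT-treated *Prestin*-*hDTR* mice. *Ntrk2*, the receptor of brain-derived neurotrophic factor, was 1.1-fold to 1.17-fold higher by its brightest probe and 1.21-fold to 1.22-fold lower by a probe printed 10 times, so its probes disagreed. *Bdnf* had log2 signals of -2.21 without and -2.06 with DT in wild-type mice, and of -1.88 both without and with DT in *Prestin*-*hDTR* mice.

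Of the 3 proposed receptors of VGF peptides, *C3ar1*, the receptor of complement C3a, had a higher signal in DT-treated *Prestin*-*hDTR* mice. This signal was 2.06-fold that of untreated wild-type, 1.99-fold that of DT-treated wild-type, where the probe was dim, and 2.39-fold that of untreated *Prestin*-*hDTR* mice. As 1 of these folds was just under 2-fold, *C3ar1* was not counted as passing all 3 comparisons, and it was counted when the arrays were scaled by their median. *C3ar1* is also a gene of macrophages, whose markers rose as given above. *C1qbp* (a mitochondrial protein) and *Hspa8* (a chaperone) differed by -0.15 to 0.09 on the log2 scale.

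**Figure D4:**
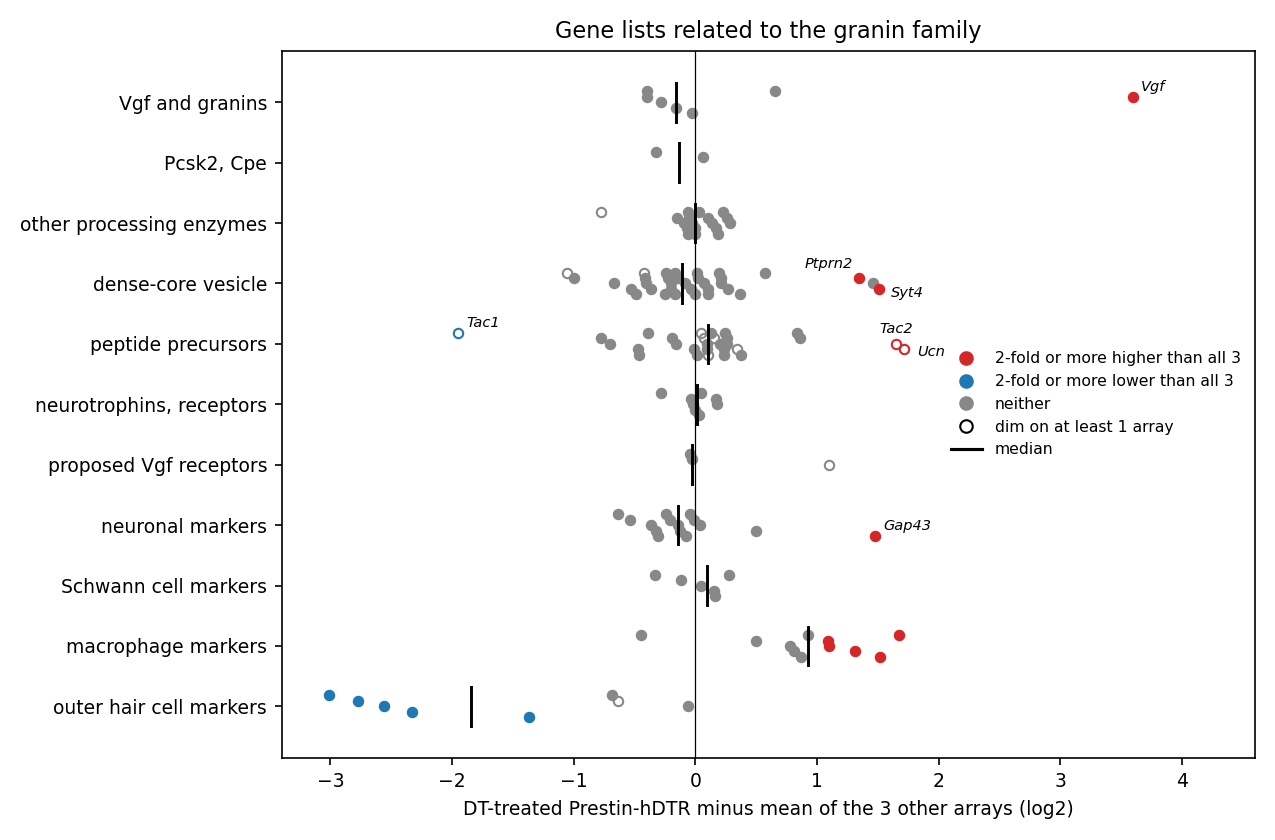
Each point is 1 gene, placed by the difference of DT-treated *Prestin*-*hDTR* from the mean of the 3 other arrays on the log2 scale (x axis) in the member, related and marker lists (y axis). Black bars are list medians, open points were dim on at least 1 array, and red and blue points passed 2-fold against all 3 arrays; *Vgf* stands at 3.59, while the median of the granins including it is -0.16.

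The genes whose pattern was most like that of *Vgf* were not members. By the Euclidean distance between log2 profiles centred on their own mean over the 4 arrays, the 5 nearest of 18231 genes were *Ddx43* (1.05), *Apoc2* (1.11), *Lgals3* (1.14), *Cldn22* (1.19) and *Cdsn* (1.21). *Ddx43* is an RNA helicase, *Apoc2* an apolipoprotein that activates lipoprotein lipase, *Lgals3* galectin 3, *Cldn22* a claudin and *Cdsn* a protein of the cornified skin. Their signal in DT-treated *Prestin*-*hDTR* mice was higher by 2.37 to 2.66 on the log2 scale from the mean of the 3 other arrays, each by less than *Vgf*. All of these nearest genes stand with *Vgf* in a cluster of top raised genes that the paper shows from the same arrays. Their nearness is therefore not independent evidence. The paper reports *Ddx43* as undetectable by qRT-PCR. It measured the rest of these genes by that method, and does not name them among the top genes without a significant rise. On the 3 other arrays, the *Ddx43* probe had low intensities of 47.6 to 77.6, although each passed the background mark. The nearest member was *Scg2*, at a distance of 2.64 and rank 386. The other members lay at 3.16 or more, at ranks from 6357 for *Cpe* to 17118 for *Chgb*. With 4 arrays, such a distance is mainly the size of the rise in DT-treated *Prestin*-*hDTR* mice.

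Promoters of the family were read to see whether the members that differed in direction also differed in a known regulatory motif. The RefSeq promoter table (GRCm38.p6), which gives 250 bases before and 50 after the start of each gene, had entries for 8 of the 10 members, all except *Vgf* and *Cpe*. The cAMP response element TGACGTCA, which reads the same on both strands, was searched. It was found in 3 of these 8 members, *Scg2*, *Chgb* and *Pcsk1*, and in 2.03% of the 27025 genes with an entry. Among the named related genes with an entry it was in 1 of 9, *Ucn*. The windows below show the motif in capitals, at chr1:79440061-79440120 (minus strand) for *Scg2*, chr2:132781544-132781603 (plus strand) for *Chgb*, chr13:75089753-75089812 (plus strand) for *Pcsk1* and chr5:31138906-31138965 (minus strand) for *Ucn*.
Scg2: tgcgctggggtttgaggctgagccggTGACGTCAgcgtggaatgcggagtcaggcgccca
Chgb: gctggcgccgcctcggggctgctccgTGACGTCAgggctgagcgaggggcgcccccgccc
Pcsk1: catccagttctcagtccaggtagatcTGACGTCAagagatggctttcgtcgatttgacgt
Ucn: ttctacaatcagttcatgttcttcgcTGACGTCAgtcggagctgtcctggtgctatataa

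The motif began 68 bases before the start of *Scg2*, 72 before that of *Chgb*, 78 before that of *Pcsk1* and 44 before that of *Ucn*. In DT-treated *Prestin*-*hDTR* mice, *Scg2* and *Ucn* had their highest signal, *Chgb* had its lowest, and *Pcsk1* was dim. The differences of *Scg2* and *Chgb* were under 2-fold, *Ucn* was dim on the 3 other arrays, and *Vgf* had no entry. A link between the motif and the direction was therefore not tested. A match of letters is a description and not a measured binding site.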

How the data were processed

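Cochlear RNA of 4 groups was hybridised to 1 Agilent 1-colour array each, all on 1 slide. Spot intensity was deposited as Agilent Feature Extraction 11.5.1.1 wrote it, after background subtraction and without scaling between arrays. A further table that the authors deposited holds this signal divided by 1 constant per array, and served as an alternative only. Outlier and control spots were dropped, the mean of the spots was taken per probe, and values were scaled to the 75th percentile of their array and logged (base 2), as in the study's methods. A gene was represented by its brightest probe that passed the background mark on any array, and was compared where this held on at least 1 of both arrays. Dim signals below the lowest signal well above background on their array were raised to that signal. A difference was called at 2-fold. Gene names came from the scanner files, updated through RefSeq.

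The members and the lists were chosen with earlier results of these data known. Named genes are all members, the related genes past 2-fold against all 3 arrays (otherwise the 2 of a list furthest from the mean of the other arrays) and the 5 genes nearest to *Vgf*, and others are named as examples chosen after their values were seen. Python 3.11.15, pandas 2.3.3, and limma 3.58.1 in R 4.3.3 (normexp) were used. The 2-fold call was tried on simulated arrays with known changes above that threshold. The scaling, the choice of probes and the distances were not simulated. The alternatives changed the scaling, background correction, filter, floor, probe rule, threshold and control arrays. Some genes that the rule would name are not reported here.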

Additional observations from a re-analysis of the deposited data

Results flagged for a closer look

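With 1 array per group, no sample could be compared with others of its group. In 9 of 31 genes with values given here and well above background on all 4 arrays, the difference between DT-treated and untreated mice had opposite signs in the 2 genotypes. In 8 of them it was negative in wild-type and positive in *Prestin*-*hDTR* mice. The share over all genes was not counted. Some of the 31 genes were named for a high signal in DT-treated *Prestin*-*hDTR* mice, so these counts describe the named genes only. Between the genotypes, *Cdsn* differed by 3.03 on the log2 scale (-0.39 in wild-type and 2.64 in *Prestin*-*hDTR* mice), *Gap43* by 2.005 (-0.42 and 1.59) and *Ptprn2* by 1.61 (-0.26 and 1.34). *Nppc* differed by 1.08 (-0.23 and 0.85), *Scg2* by 0.85 (-0.11 and 0.74) and *Ptprn* by 0.78 (-0.16 and 0.62). The values were 0.30 for *Prcp* (-0.0028 and 0.30) and 0.24 for *Cpe* (-0.16 and 0.08). For *Bdnf* the signs were the other way, with 0.15 in wild-type and -0.0023 in *Prestin*-*hDTR* mice, a difference of -0.15. The *Prcp* value in wild-type and the *Bdnf* value in *Prestin*-*hDTR* mice were smaller than the spot SD of 0.06 to 0.07. None of the 9 differences between the genotypes was tested.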

How the results depend on the processing

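Each result was recomputed with scaling by the array median, quantile normalization, normexp background correction, the scaled table of the authors, only probes well above background on all 4 arrays, no filter on dim probes, no floor on dim signals and the mean of all probes of a gene. The counts were also made at 1.5-fold and, as an alternative chosen after seeing the data, without each of the 3 other arrays in turn. *Vgf* was the 1 member higher by 2-fold and 0 members were lower under all of these settings, and the median of the other members stayed within 0.10 of its value. The difference of *Vgf* from untreated *Prestin*-*hDTR* mice became 4.04 with normexp. Of 192 recomputed differences of the other members, 186 moved by less than 0.10 on the log2 scale (the spot SD of 2 arrays combined), and none of them exceeded 0.76 in size. The counts of related genes depended most on the processing. The 4 higher ones became 1 with normexp (*Syt4*), 2 when probes had to be well above background on all 4 arrays (*Ptprn2* and *Syt4*) and 8 at 1.5-fold. The 1 lower one became 0 with normexp, 0 with that filter, 3 without a floor and 3 at 1.5-fold. Leaving out an array gave 4 to 5 higher and 1 to 2 lower, with *C3ar1* added to the higher ones and *Slc18a1* to the lower ones without DT-treated wild-type mice, and *Doc2b* added to the lower ones without untreated *Prestin*-*hDTR* mice. No paired analysis was possible because each group has 1 array. The number of arrays limits the precision of every value, and dim signals raised to the floor give bounds only.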

Other observations

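Some peptide and vesicle genes varied as much among the 3 other arrays as between them and DT-treated *Prestin*-*hDTR* mice. *Syt10*, a synaptotagmin of secretory vesicles, had log2 signals of -4.43 without and -2.20 with DT in wild-type mice, and -2.59 without and -1.62 with DT in *Prestin*-*hDTR* mice, so the untreated wild-type array stood below the rest. *Calcb*, which encodes a calcitonin gene-related peptide, passed the background mark on the arrays of untreated wild-type (-3.57) and DT-treated *Prestin*-*hDTR* mice (-4.80), and was dim on the other 2 arrays. *Slc18a1*, a vesicular monoamine transporter, had -2.49, -3.47, -2.01 and -3.66 in the order given for *Syt10*, and both DT-treated arrays were low. *Penk*, the precursor of enkephalins, had 1.65, 1.09, 0.73 and 0.69, with the untreated wild-type array highest.

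A pair of peptide hormone genes rose by less than 2-fold against every other array. *Adm*, which encodes the vasodilator adrenomedullin, had -1.16, -0.88, -1.19 and -0.22, and *Nppc*, the precursor of C-type natriuretic peptide, had -4.87, -5.10, -5.01 and -4.16. In both, the DT-treated *Prestin*-*hDTR* array was above the others, by 0.67 to 0.97 for *Adm* and by 0.72 to 0.95 for *Nppc* on the log2 scale. These genes were picked after their values were seen.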
